A study of Mus musculus with 5 samples.

Results

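In hippocampal neuronal nuclei of mice put through contextual fear conditioning, 572 bins of 50 kb lay in compartment A in the Basal and Early states and in compartment B in the Late state. They were chosen by sign alone, as the bins whose PC1, the first principal component of a library's Hi-C interaction matrix, was above 0 in both Basal libraries and in the Early library and below 0 in both Late libraries. They made up 1.28% of the 44650 bins with a value in all 5 libraries on the 18 autosomes other than chromosome 7, and 28.6 Mb of 2232.5 Mb. All 5 PC1 files were used to choose them, so their PC1 levels and the contrasts between the states are given as descriptions and test nothing. No other readout of these nuclei was used here.

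The Basal state had 2 libraries, the Early state 1 and the Late state 2, named by their titles. All came from sorted hippocampal nuclei of ArcCreERT2 mice crossed to R26R-STOP-floxed mice that carry yellow fluorescent protein (eYFP), genotype +/+, and each group used 100000 nuclei from 2 pooled animals. Arc, an immediate early gene, drives the tamoxifen-dependent Cre, so the reporter marks neurons active around the dose of 4-Hydroxytamoxifen, which was given 1 h before conditioning. The nuclei were stained for NeuN, a marker of neuronal nuclei, and for GFP, and the labels do not say which gate, age or sex belongs to which state. One treatment label covers all 5 libraries, with foot shock and tissue collection on day 0 and no recall. The mice were kept in the dark for 24 h before conditioning, and those not collected on the same day for 48 h after it. Tissue was taken 1.5 to 2 h or 5 days after conditioning according to the protocol, which ties neither time to a library, so the times of Basal, Early and Late are known only as far as their titles go. The protocol calls the 2 libraries of a group biological replicates, without naming the animals of each.

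Hi-C ligates DNA ends that are neighbours in nuclear space and counts the joined pairs. The first principal component of its contact map divides each chromosome into a pair of compartments. Compartment A gathers open, gene-rich and mostly transcribed chromatin, and compartment B gathers closed, gene-poor chromatin, much of it at the nuclear edge. Domains of either kind are long compared with single genes, and those that differ between cell types often hold genes of tissue-specific activity. Genes could not be placed in these bins, because the bins are in the mouse build mm9 and the gene table at hand is in GRCm38.p6, so regions are named by position and neuronal markers could not be checked.

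The libraries listed 50558 to 51726 bins each, without read counts, so their depth is unknown. Over the autosomal bins PC1 correlated with r = 0.968 between the Late replicates and 0.987 between the Basal replicates, and with 0.929 to 0.944 between a Late and a Basal library. The Early library correlated with 0.906 to 0.915 with the other 4. Local noise is each library's share, in PC1 units, of the scatter of differences between libraries about the mean of the bins 100 kb to either side. It was 0.121 and 0.124 for Basal, 0.229 for Early, then 0.113 and 0.203 for Late replicates 1 and 2. PC1 was scaled to an SD of 1.00 to 1.01 on each chromosome, so a value of 1 is about 1 SD of the chromosome.

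The 572 bins stood at modest levels on both sides of the border. In Basal replicate 1 their PC1 ran from 0.000404 to 1.25 with a median of 0.355, and in Basal replicate 2 from 0.000408 to 1.11 with a median of 0.358. In the Early library it ran from 0.00123 to 1.44 with a median of 0.255. In Late replicate 1 it ran from -1.03 to -0.000479 with a median of -0.294, and in Late replicate 2 from -0.916 to -0.0000436 with a median of -0.262. By rank among the autosomal bins, the median bin stood at the 61.5th and 61.4th percentile in the Basal libraries, the 57.8th in Early, and the 45.0th and 44.8th in the Late libraries, where PC1 changes sign between the 50.8th and 53.1st percentile. They thus passed from the weaker part of A to the weaker part of B, since the other bins above 0 in both Basal libraries had a median Basal PC1 of 1.03.

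**Figure D1:**
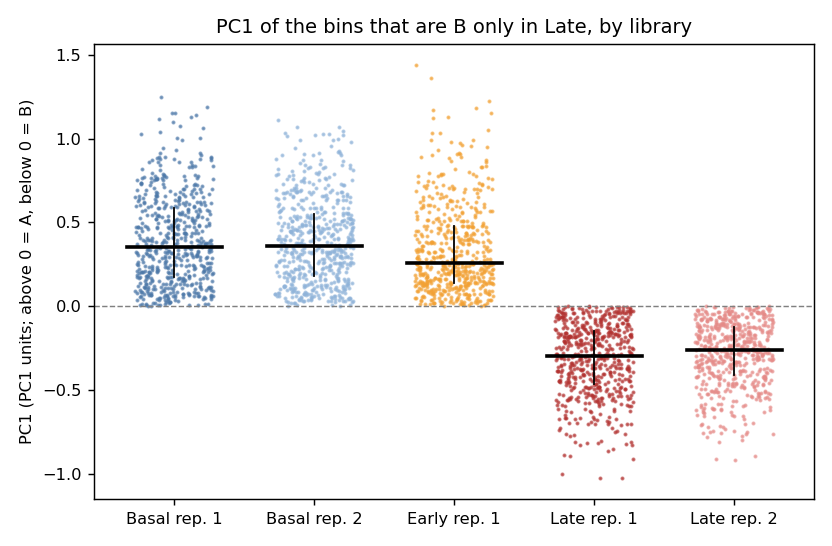
PC1 (PC1 units, vertical axis) of the 572 bins in each of the 5 libraries (horizontal axis). Points are bins, thick lines medians and thin lines the span from the 25th to the 75th percentile; the medians are 0.355 and 0.358 in Basal, 0.255 in Early, then -0.294 and -0.262 in Late, and the side of 0 is set by the choice of bins.

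The mean of the Late libraries lay below that of the Basal libraries by a median of 0.67 PC1 units (difference -0.67, from -1.67 to -0.0356 over bins, median standard error 0.125 in limma), and by more than 1 unit in 78 bins. The 2 libraries of a state differed in these bins by a median of 0.137 in Late and 0.105 in Basal. For scale, the same difference between Late and Basal had a median of -0.0133 over all autosomal bins. Every library lay beyond 0.1 from the border in 254 bins and beyond 0.25 in 42. The value nearest 0 was in Late replicate 2 in 150 bins and in Early in 148, which are the libraries with the most local noise.

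The choice at 0 is sharp while the values are continuous. Just inside it, the bin on chromosome 14 from 100100001 to 100150000 had -0.0000436 in Late replicate 2, although Late replicate 1 had -0.444 and the Basal libraries 0.438 and 0.264. Just outside it, the bin on chromosome 6 from 73250001 to 73300000 had the wanted sign everywhere but in Early, at -0.0000656. In all, 425 bins missed only in Early, 313 only in Late replicate 1, 289 only in Late replicate 2, 121 only in Basal replicate 1 and 82 only in Basal replicate 2, and 98, 71, 92, 63 and 44 of these lay within 0.1 of 0.

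Each bin was also fitted with limma, a linear model that shares its estimate of spread over all bins, on the 47652 bins of the 18 autosomes and X. At a Benjamini-Hochberg adjusted p of 0.05, 469 of the 572 bins (82.0%) were lower in Late than in Basal and none was higher, beside 7.63% of all bins lower. Against Early, 306 (53.5%) were lower in Late, beside 6.44% of all bins lower and 6.28% higher. Both contrasts were used to choose the bins, so nothing is read from these counts. Of the 254 bins beyond 0.1 in every library 244 (96.1%) were called lower in Late than in Basal, and of the other 318 bins 225 (70.8%). Without a Basal library fewer bins were called lower in Late than in Basal, among the 572 and over all bins. The median difference between Late and Basal was -0.666 without Basal replicate 1 and -0.673 without Basal replicate 2. With libraries weighted by local noise the Late versus Early count was 56, beside 0.651% of all bins lower. When every sequence entered the fit as deposited, chromosome 7 included, limma called 0 of the 572 in either contrast. It also called 0 of all 50542 bins in both, so this 0 does not set the 572 apart. The limma p was under 0.05 before adjustment in 523 of the 572 for Late versus Basal and 425 for Late versus Early. Over all 50542 bins this held for 13365 and 12635.

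In Early the bins had not moved 1 way. Early lay below both Basal libraries in 281 bins (49.1%), between them in 94 (16.4%) and above both in 197 (34.4%). The other bins that were A in both Basal libraries and in Early gave like shares, with 48.2% below and 39.2% above. In limma 39 of the 572 bins (6.82%) were lower in Early than in Basal, beside 9.98% of all bins, and 26 (4.55%) were higher, beside 9.97%. Requiring A in Early keeps out bins that had already fallen far, so these shares describe the chosen bins. The total was 65 calls, beside 19.9% of all bins called in either direction. With a 10 Mb running mean removed it was 37, where 5588 of all 47652 bins were called. It was 6 when weighted by local noise, where 3011 of 47652 were called, and 6 with all sequences, where 2084 of 50542 were. The total fell without a Basal library and rose without a Late library, as did the calls over all bins.

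Merged across gaps of at most 1 bin, the 572 bins formed 243 regions. Single bins made up 126 of them, while 59 regions of 3 or more bins held 330 bins and the 12 regions with the most bins held 142 (24.8%). The rule for naming took these 12 and the 8 others with the largest fall among regions of at least 3 bins. In 19 of the 20 every bin was called lower in Late than in Basal, and in the remaining one 14 of 15. Over all bins 7.63% were called lower. The regions were chosen by sign and then by size or fall, so nothing is read from this count.

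Whole A domains passed into B at several of the named regions. An A domain is taken here as an unbroken run of bins with a Basal mean above 0. The region with the most bins lay on chromosome 6 from 110600001 to 111550000, where 19 bins averaged 0.500 and 0.426 in the Basal libraries, 0.266 in Early, then -0.387 and -0.287 in the Late libraries. It filled nearly all of an A domain of 1050 kb, and all 21 bins of that domain were below 0 in both Late libraries. A second such case was on chromosome 14 from 39750001 to 40300000, whose 11 bins averaged 0.727 and 0.672 in Basal, 0.438 in Early, then -0.691 and -0.379 in Late.

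All 19 bins of the A domain around this chromosome 14 region, 950 kb long, were B in both Late libraries. In its proximal part 7 bins were below 0 in Early already, 4 of them with both Basal libraries above 0, and Basal values were higher in the distal part, where the 11 bins lay. On chromosome 2 from 61800001 to 62250000 an A domain of 450 kb with B on either side passed into B in all of its 9 bins, with 0.488 and 0.442 in Basal, 0.602 in Early, then -0.253 and -0.222 in Late. On chromosome 13 from 118450001 to 118700000, 4 bins of an A domain of 300 kb averaged 0.219 and 0.186 in Basal and 0.629 in Early. In Late they averaged -0.935 and -0.617, the lowest Late levels of any named region, and all 6 bins of that domain were B in both Late libraries.

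**Figure D2:**
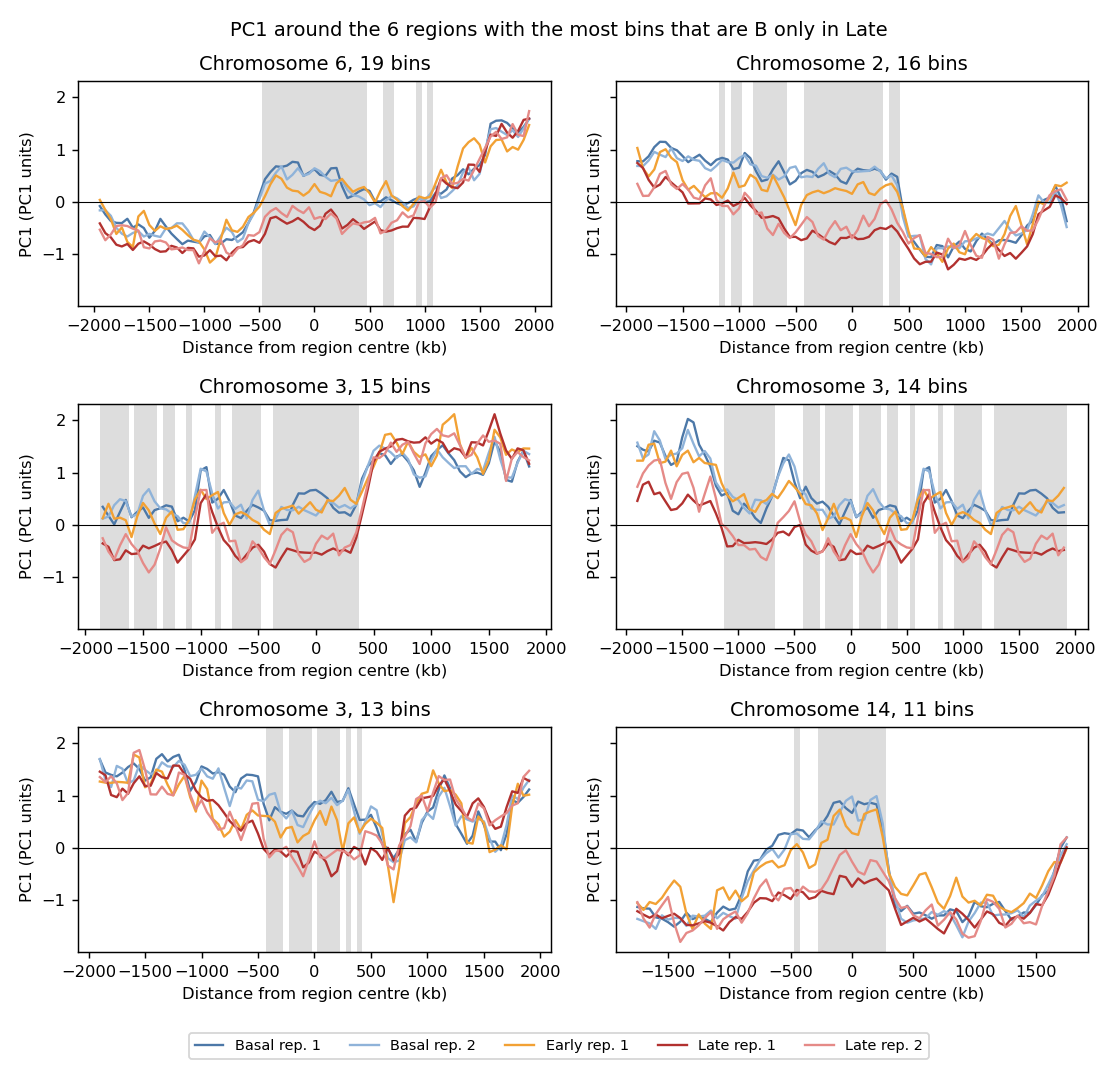
PC1 (PC1 units, vertical axes) against distance from the region's centre (kb) around the 6 regions with the most bins, 1 line per library, with grey marking bins that are B only in Late. On chromosome 6 both Late lines run below 0 through the whole A domain, and on chromosome 3 (15 bins) all 5 lines meet in A beyond the region's right end.

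Other regions were the end of a longer A domain. On chromosome 2 from 7750001 to 8600000, 16 bins averaged 0.544 and 0.567 in Basal, 0.224 in Early, then -0.643 and -0.426 in Late. They form the distal end of an A domain of 5300 kb, in which 69 of 106 bins stayed in A in all 5 libraries and 28 were B in both Late libraries. The 9 bins on chromosome 3 from 29100001 to 29650000 averaged 0.597 and 0.628 in Basal, 0.278 in Early, then -0.252 and -0.334 in Late, and ended an A domain of 750 kb. Most of that domain passed into B, since 11 of its 15 bins were B in both Late libraries and only 2 were A in all 5 libraries. On chromosome 13 from 9900001 to 10400000, 8 bins at the end of an A domain of 1650 kb averaged 0.258 and 0.324 in Basal, 0.715 in Early, then -0.492 and -0.545 in Late. Late replicates 1 and 2 lay below every Basal and Early mean in each of these 3 regions, as the choice of bins requires. With a 10 Mb running mean removed, the difference in this last region was -0.492 against -0.81 as deposited, and 4 of its 8 bins kept the call.

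The cluster with the most bins lay inside the A domain on chromosome 3 from 115600001 to 123350000. Within it, from 117650001 to 120800000, 6 regions held 45 of the 63 bins, with 7 further bins that were B in Early too and only 2 that were A in all 5 libraries. Its 3 named regions had 15, 14 and 9 bins. The one from 120050001 to 120800000 averaged 0.377 and 0.309 in Basal, 0.388 in Early, then -0.519 and -0.357 in Late. With a 10 Mb running mean removed its difference between Late and Basal was -0.519 against -0.781 as deposited, and 9 of its 15 bins were called lower. The one from 118350001 to 119200000 averaged 0.330 and 0.372 in Basal, 0.225 in Early, then -0.473 and -0.449 in Late. The one from 117650001 to 118100000 averaged 0.312 and 0.459 in Basal, 0.464 in Early, then -0.346 and -0.409 in Late. Over the whole cluster the means were 0.399 and 0.426 in Basal, 0.309 in Early, then -0.396 and -0.312 in Late, while 89 of the domain's 155 bins stayed in A in all libraries.

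The same chromosome held a region from 56050001 to 56900000, whose 13 bins averaged 0.773 and 0.754 in Basal, 0.425 in Early, then -0.200 and -0.182 in Late. Of its A domain of 2700 kb, 31 of 54 bins stayed in A throughout. On chromosome 2 from 142900001 to 143400000, 10 bins averaged 0.318 and 0.381 in Basal, 0.368 in Early, then -0.503 and -0.507 in Late. Of its A domain of 1800 kb, 19 of 36 bins stayed in A throughout, so in both cases part of an A domain passed into B and the larger part did not.

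The 8 regions named for their fall had 3 to 5 bins each, and 7 of them had Basal means above 0.6. On chromosome 16 from 6700001 to 6900000, 4 bins averaged 1.06 and 1.04 in Basal, 0.211 in Early, then -0.244 and -0.477 in Late, a difference between Late and Basal of -1.41. All 4 of these bins were called lower in Early than in Basal too, the only named region where that held, and 18 bins of the same A domain of 4400 kb were A in both Basal libraries and B in Early and Late. With a 10 Mb running mean removed the difference was -0.918. The 3 bins on chromosome 10 from 89600001 to 89750000 averaged 1.08 and 0.986 in Basal, 0.804 in Early, then -0.359 and -0.200 in Late. The 3 bins on chromosome 3 from 157950001 to 158150000 averaged 0.744 and 0.918 in Basal, 0.535 in Early, then -0.420 and -0.450 in Late. In both of these regions the Early mean lay nearer to the Basal means than to the Late means.

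The chromosome 13 region from 118450001, described above, was also named for its fall (difference between Late and Basal -0.978), from weak A levels. The other 4 were on chromosome 14 from 13400001 to 13600000 (difference between Late and Basal -1.05), chromosome 10 from 10550001 to 10750000 (-0.995), chromosome 8 from 9250001 to 9550000 (-0.979) and chromosome 18 from 42050001 to 42300000 (-0.970). Early stood at 0.254, 0.200, 0.273 and 0.608 there, below both Basal means in all 4.

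**Figure D3:**
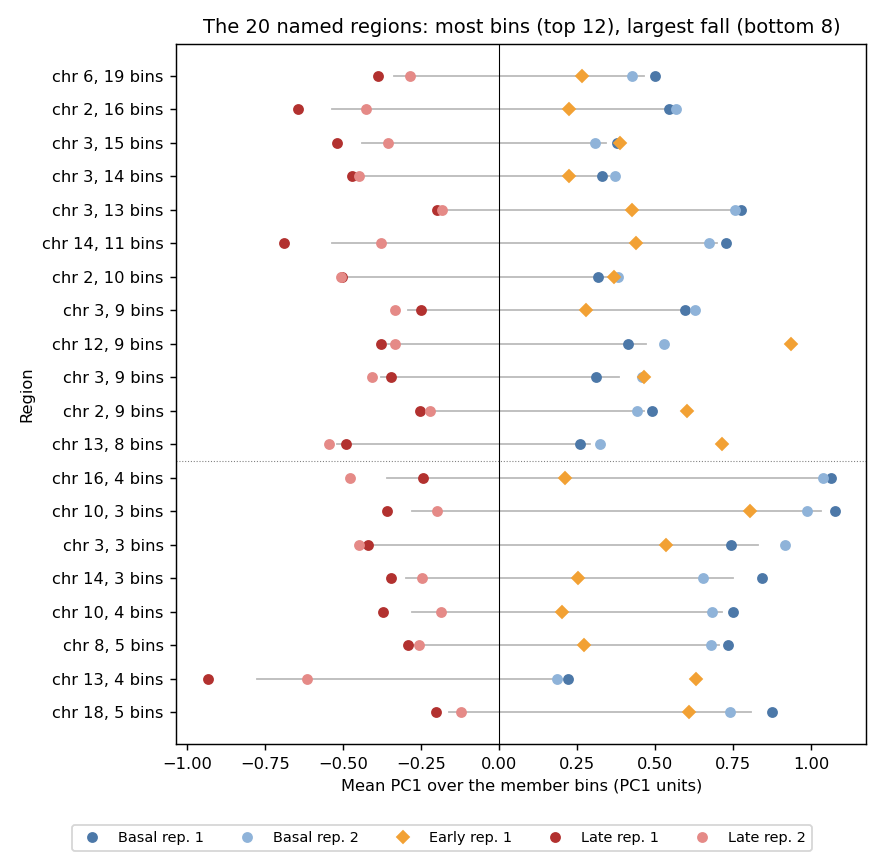
Mean PC1 over the chosen bins (PC1 units, horizontal axis) of the 20 named regions (rows, with chromosome and number of bins), with a point per library, diamonds for Early and a grey line joining the Late mean to the Basal mean. Late points lie left of 0 and Basal and Early points right of it in every row by the choice of bins; Early lies above both Basal points in 6 rows and below both in 13.

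The named regions differed in their Early level. The Early mean was below both Basal means in 13 of the 20 regions and above both in 6. On chromosome 12 from 90250001 to 90700000, 9 bins averaged 0.414 and 0.527 in Basal, 0.936 in Early, then -0.378 and -0.334 in Late. There 5 of the 9 bins were called higher in Early than in Basal, and all 9 lower in Late than in Early. The regions on chromosome 13 from 9900001 and from 118450001 had 3 of 8 and 2 of 4 bins called higher in Early. Among all 59 regions of 3 or more bins, 7 had a bin called higher in Early than in Basal and 14 had one called lower. Bin by bin, 9.97% of all bins were called higher and 9.98% lower in that contrast, beside 4.55% and 6.82% of the 572. The counts of Early calls are therefore not read as a trait of these regions. In 53 a bin was called lower in Late than in Early, a contrast used to choose the bins, so nothing is read from that count. Early is 1 library with the highest local noise, and its part in these differences was not tested.

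The regions lay nearer to the border between compartments than other A bins. The median distance to the nearest bin with a Basal mean below 0 was 200 kb for the 572 bins and 750 kb for the other bins above 0 in both Basal libraries. Of the 572, 19.8% were next to such a bin, beside 6.27% of the others, while 25.7% lay over 500 kb away, beside 60.3%. Bins near 0 are near borders and also change sign more easily, so this describes where the choice falls. Of the 243 regions 75 (30.9%, exact binomial 95% interval 25.1 to 37.1) touched a bin that was B in both Basal libraries. Of these, 70 did so on 1 side and 5 on both, and 168 regions touched none. The interval treats regions as independent, though they fall into 153 clusters within 1 Mb. It does not measure the spread between libraries. Counting B bins within 2 bins of the ends gave 49.0%, and using the sign of the Basal mean 42.0%. In both Late libraries, 68 regions had B on either side, 110 on 1 side and 65 on neither.

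A domains of Basal numbered 1033, with a median length of 300 kb. The 572 bins fell in 187 of them, with a median length of 400 kb, and in 46 of these every bin was B in both Late libraries, which took in 111 of the 572. Over all 1033, every bin was B in both Late libraries in 136, with a median length of 100 kb. Of the 187, 84 (44.9%) also held bins that were A in both Basal libraries and B in Early and Late, as did 177 of the 1033, and 85 of the 243 regions adjoined such a bin. A bin passing from B to A lay within 500 kb of 26 regions (10.7%). Like shares for other stretches of A were not computed, so neither count of regions is read as high or low.

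The fall did not end at the edges of the regions. Around the 59 regions of 3 or more bins, bins 150 to 250 kb outside, which the rule did not choose, were lower in Late than in Basal by limma in 101 of 266 cases (38.0%), with 7 higher, against 7.63% lower and 8.78% higher over all bins. Their median difference was -0.366. At 300 to 500 kb 27.5% of 436 bins were lower and 3.67% higher, with a median difference of -0.227. At 550 to 1000 kb 16.7% of 850 bins were lower and 5.41% higher, with a median difference of -0.125. Early minus Basal in the same bins had medians of -0.0311, 0.0619 and 0.0571. PC1 runs smoothly along a chromosome, so these bins are not independent of the chosen ones.

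**Figure D4:**
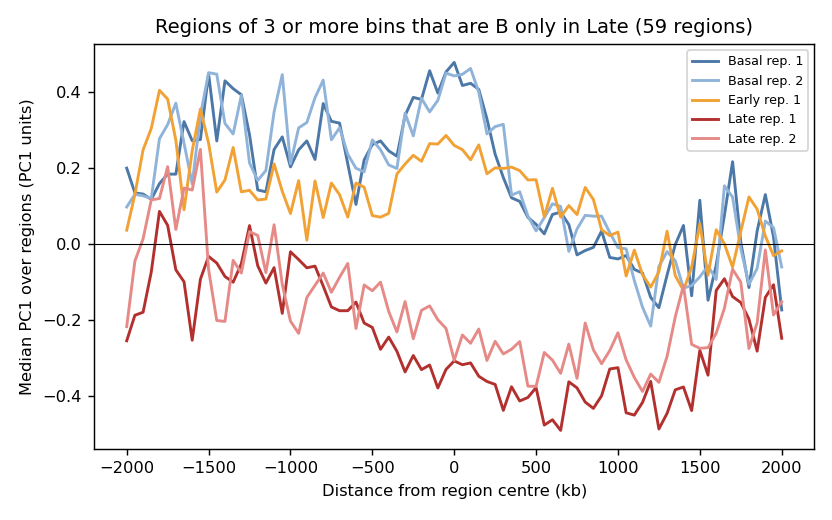
Median PC1 (PC1 units, vertical axis) over the 59 regions of 3 or more bins against distance from the region's centre (kb), 1 line per library. At the centre the medians are 0.477 and 0.442 in Basal, 0.259 in Early, then -0.308 and -0.307 in Late, and the Late lines stay below the Basal lines 500 kb to either side.

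The chromosomes held unequal shares. Chromosome 3 had 82 of the 572 bins (2.62% of its bins), chromosome 2 had 82 (2.32%) and chromosome 6 had 54 (1.85%), together 38.1% of the 572 on 21.5% of the bins. Chromosome 11 had 6 (0.253%), chromosome 5 had 9 (0.309%) and chromosome 4 had 15 (0.504%), all short, with at most 3 bins in a region. The median chromosome had 1.23%. The first 5 Mb, counted from the first analysed bin of each chromosome and not from position 1, held 28 of the 572 (4.90%), beside 3.83% of all bins. The last 5 Mb held 24 (4.2%), beside 4.00%. The other bins that were A in both Basal libraries and in Early, from which the 572 were set apart by Late alone, had 2.92% in the first 5 Mb and 6.20% in the last. Long regions weigh on these shares, since neighbouring bins move together.

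**Figure D5:**
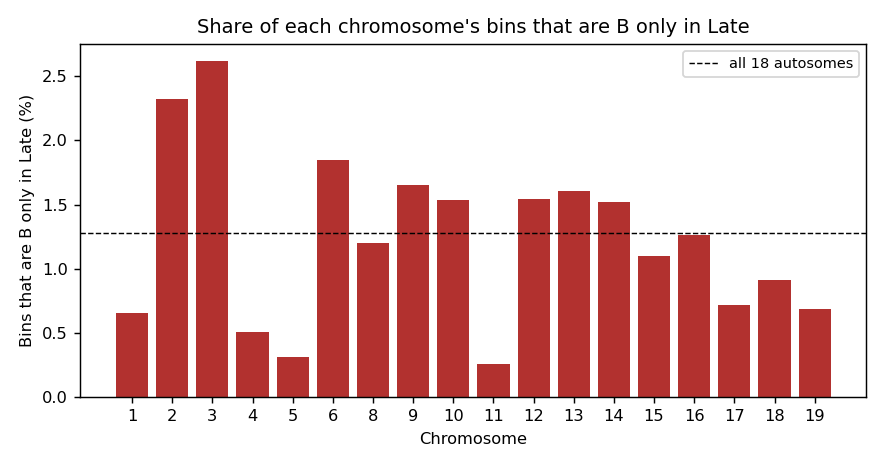
Share of bins that are B only in Late (%, vertical axis) on each of the 18 autosomes analysed (horizontal axis), with a dashed line at 1.28%, the share over all of them. Chromosomes 3, 2 and 6 have the highest bars (2.62%, 2.32% and 1.85%) and chromosome 11 the lowest (0.253%).

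Among the like patterns, the bins that were B only in Late had the largest share in regions of 3 or more bins. Single bins made up 51.9% of their regions, against 54.9%, 62.5% and 52.6% for the other patterns in the order given next. Regions of 3 or more bins held 57.7% of the 572, against 49.2% of the 425 bins that were B in both Early and Late, 37.9% of the 515 bins that passed to A only in Late and 52.3% of the 826 that passed to A in Early and Late. Regions of 9 or more bins numbered 11, against 2, 1 and 7. The median difference between Late and Basal was -0.67, against -0.615 for bins that were B in both Early and Late, 0.565 for those that passed to A only in Late and 0.603 for those that passed to A in Early and Late. These counts share all 5 libraries and are given without a test. The 572 made up 57.4% of the 997 autosomal bins that were A in both Basal and B in both Late libraries.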

How the data were processed

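The authors deposited PC1 as a signed score per 50 kb bin, computed in windows of 100 kb, made with HOMER on mm9, per the submitters' processing notes and the file headers. The last bin of chromosome 1 ends at 197200000. The aligner, the read filters and the setting of the sign: not given in the sources used here; positive PC1 is read as A, as HOMER does. Bins with a value in all 5 libraries numbered 50542. Chromosome 7 was left out because libraries correlated with r down to -0.976 there. limma 3.58.1 (R 4.3.3) fitted all 5 libraries together, without covariates, 2-sided, with p-values adjusted by Benjamini-Hochberg over 47652 bins; it had 2 residual degrees of freedom and a prior of 6.6, and Early, with 1 library, is taken to vary as Basal and Late do. P-values measure only the spread between these libraries. Regions merge bins across a gap of 1; those named are the 12 with the most bins and the 8 with the largest fall among regions of 3 or more bins. The bins, rules and lists were chosen with earlier results of these data known. The gene lists could not be used, since no annotation in mm9 was at hand. Python 3.11.15, numpy 2.4.6, pandas 2.3.3, scipy 1.17.1 and matplotlib 3.10.9 did the rest. Coordinates are 1-based. Alternatives covered scaling, bin sets, weights, the replicate block, a trend in the prior and each library left out.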

Additional observations from a re-analysis of the deposited data

Results flagged for a closer look

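On chromosomes outside the choice, the same signs appeared in 22 of 2684 bins of chromosome 7 (0.82%), once the sign of Late replicate 1 was inverted there (its r with Basal replicate 1 was -0.925), and in 6 of 3002 bins of X (0.2%), against 1.28% of the autosomal bins. The labels give no sex, so on X a difference of sex and of state cannot be told apart.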

How the results depend on the processing

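The number of bins chosen was 569 with chromosome medians aligned (486 shared with the 572), 591 with quantile normalization (532 shared) and 592 with means over 3 bins (446 shared). It was 254 when every library had to pass 0 by 0.1, and 654 to 997 with a library left out, the highest without Early. Leaving a library out drops a condition of the rule and keeps all 572, so the number could not fall. Without Late replicate 1 it was 885 and without Late replicate 2 861. Bins called lower in Late versus Basal numbered 376 to 506 under the other settings that kept all libraries, 258 to 491 with a library left out, and 0 with all sequences. In Late versus Early the bins called lower numbered 56 when weighted by local noise, beside 0.651% of all bins. They numbered 211 to 325 under the others, beside 3.35% to 7.4% of all bins fitted, and 0 with all sequences, as over all bins. In Early versus Basal the calls numbered 37 with a 10 Mb running mean removed, 6 when weighted, 6 with all sequences and 11 to 170 with a library left out. The cause was not tested. The all-sequences setting leaves each difference as it is and lowers the prior degrees of freedom to 2.58. It called 0 of all 50542 bins in Late versus Basal and in Late versus Early. With the replicate number as a block the 3 counts were 476, 278 and 57. Over all bins 8.58% and 6.18% were lower in the first 2 contrasts, and 9585 were called in the last. Same-numbered deviations of Basal and Late correlated with r = 0.0111 over the autosomal bins. That shows no shared PC1 deviation by number, and it cannot tell whether same-numbered libraries were prepared together. The share of regions touching B was 49.0% within 2 bins and 42.0% by the Basal mean. The median difference between Late and Basal was -0.709 to -0.566 over 3 scalings and -0.696 to -0.663 with a library left out. In the 20 named regions the mean difference ran from -1.53 to -0.492 over the 140 values computed. Where a library was left out, a sign below 0 was fixed by the choice of bins, so only the size could vary. The files hold no counts, so depth sets no limit that can be stated.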
